A study of Mus musculus with 4 samples.

Results

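The genes described here are the heat shock and DnaJ chaperones, read from RNA-seq libraries of lung CD8+ T cells of mice. Members were taken by symbol: genes named Hspa, Hsp90, Hsph, Hspd, Hspe or Hspb, and J-domain genes of the Dnaja, Dnajb and Dnajc series. These cover the Hsp70, Hsp90, Hsp110, Hsp60, Hsp10 and small heat shock protein families as far as the symbols go. Relatives with other symbols, such as Trap1, Hyou1 and Cryab, are not members, while Hspbp1 and Hspbap1 are members through their names. The symbol rule matched 90 of the 55401 genes in the tables. Leaving out 15 pseudogenes and, by the rule, Hspa5 and Dnajb9 left 73 members. Of these, 10 were listed as stress-inducible (Hspa1a, Hspa1b, Hsph1, Hspb1, Hsp90aa1, Dnajb1, Dnajb4, Dnaja1, Hspd1 and Hspe1) and the other 63 as constitutive. The rule itself uses symbols and no expression value.

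The study asked what an antibody that depletes CD4+ cells does to lung CD8+ T cells. All mice were C57BL/6J, a standard inbred strain, and no transgene or Cre is given. The labels name 2 models, IPF-LC and LC, without spelling out the abbreviations, and 2 antibody treatments, an isotype control antibody and a CD4-depleting antibody. Each of the 4 combinations is 1 library of polyadenylated RNA from CD3+CD8+ cells, amplified with a low-input kit. The age and sex of the mice and the number of mice behind a library are not given in the sources used here. With 1 library a group there is no replicate error, so no difference between single libraries was tested, and a ratio describes those libraries. Each ratio has a 95% interval for counting error only, and these intervals do not cover the spread between animals. The reads carry no molecular identifiers, so copies made in the amplification are counted as separate reads. The intervals can therefore be too narrow even for counting error.

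The library totals lay between 14946579 and 16217677 expected counts, and between 14657 and 16415 genes had a count. CD8 T cell markers were present in every library: Cd3e, Cd3d, Cd8a, Cd8b1 and Trac summed to 3268 CPM (TMM-scaled counts-per-million) in isotype IPF-LC, 2679 in CD4-depleted IPF-LC, 2647 in isotype LC and 2910 in CD4-depleted LC, with none of the 5 at 0. Transcripts of other cells differed between the libraries. All 10 macrophage and monocyte markers had a count somewhere, and their sum was 2597, 844, 2559 and 41.5 CPM in the same order, with 1, 2, 0 and 4 of them at 0. Most of this sum was Lyz2, at 2408, 788, 2089 and 33.4 CPM. The 7 fibroblast and smooth muscle markers summed to 38.5, 5.58, 89.6 and 4.72 CPM, with 2, 3, 0 and 5 at 0, and the 5 endothelial markers to 219, 143, 263 and 137 CPM, with 0, 1, 0 and 0 at 0. The endothelial sum rests on Pecam1, which was near level at 133.7, 136.5, 144.7 and 128.5 CPM; the other 4 endothelial markers summed to 85.2, 6.48, 118 and 8.23 CPM. The 3 CD4 and regulatory T cell markers went the other way, with sums of 8.51, 34.6, 7.51 and 46.0 CPM, most of it Foxp3 in the depleted libraries (29.3 and 32.5 CPM), while Cd4 was at 0 in CD4-depleted IPF-LC. Macrophage, fibroblast and, apart from Pecam1, endothelial transcripts were thus lower in both CD4-depleted libraries, and the part of these lists in the chaperone ratios was not tested. In bulk RNA, fewer cells of a type and less RNA per cell cannot be told apart.

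Chaperones bind proteins that are not in their final fold. Hsp70 proteins hold a client in a cycle of ATP hydrolysis, which J-domain proteins (the DnaJ families) start and nucleotide exchange factors such as Hsp110 reset; Hsp90 takes over many signalling proteins late in their folding. Some family members are made at all times, while others are induced by the transcription factor HSF1, which binds as a trimer to inverted repeats of GAA and TTC in promoters. T cells are known to make more of several of these proteins when they are activated.

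The promoters of most listed inducible members hold repeats of the kind HSF1 binds, a feature that the symbol rule did not use; HSF1 targets are well represented on that list from textbook knowledge, so the count below describes it and tests nothing. RefSeq promoter windows on GRCm38.p6 (an older build than the GRCm39 of the count tables) run from 250 bases before to 50 bases after a gene's start and were found for 58 of the 73 members. They were searched for a 2-unit repeat, GAANNTTC or TTCNNGAA, each of which is its own reverse complement, and for the overlapping 3-unit repeat GAANNTTCNNGAA or TTCNNGAANNTTC, which are reverse complements of each other, so both strands were read. At least 1 window with a 2-unit repeat was found for 8 of 9 stress-inducible members (88.9%), for 8 of 49 constitutive members (16.3%) and for 17.0% of the 27025 genes in the table. A 3-unit repeat was found for 4 members, Hsph1, Hspd1, Hspe1 and Dnajb6 (6.90% of 58), against 0.662% of all genes. Hspd1 and Hspe1 stand head to head and share their repeat, and Hspd1 is therefore not shown. A match is a run of letters, not a measured binding site.

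The 150 bases upstream of the start are shown for Hspa1a and Hspa1b, the genes furthest from 0 with depletion in IPF-LC among members averaging 10 CPM or more, for Dnajb4 and Hspb1, and for Dnajb1, the inducible member without a match. None of these stretches overlaps an annotated exon. They lie at chr17:34972157-34972306 (minus strand) for Hspa1a, chr17:34959239-34959388 (minus) for Hspa1b, chr3:152193846-152193995 (minus) for Dnajb4, chr5:135887769-135887918 (plus) for Hspb1 and chr8:83608025-83608174 (plus) for Dnajb1. Capitals mark the 2-unit repeats, and each sequence is written 5′ to 3′ on the gene's strand.
Hspa1a: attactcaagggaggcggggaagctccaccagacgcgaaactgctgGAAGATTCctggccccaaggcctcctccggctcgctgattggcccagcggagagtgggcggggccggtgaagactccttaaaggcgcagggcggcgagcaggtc
Hspa1b: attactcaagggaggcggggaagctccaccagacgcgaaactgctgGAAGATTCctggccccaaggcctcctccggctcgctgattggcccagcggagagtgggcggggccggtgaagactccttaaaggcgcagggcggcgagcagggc
Dnajb4: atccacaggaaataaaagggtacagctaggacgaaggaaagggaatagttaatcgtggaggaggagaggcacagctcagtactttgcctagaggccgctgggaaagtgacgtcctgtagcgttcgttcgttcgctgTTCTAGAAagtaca
Hspb1: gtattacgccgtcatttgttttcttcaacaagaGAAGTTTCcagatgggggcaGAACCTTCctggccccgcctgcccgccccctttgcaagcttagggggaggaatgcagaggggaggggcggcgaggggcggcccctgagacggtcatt
Dnajb1: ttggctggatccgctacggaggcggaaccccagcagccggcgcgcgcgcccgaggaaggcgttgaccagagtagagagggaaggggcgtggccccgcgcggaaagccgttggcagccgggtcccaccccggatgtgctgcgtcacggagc
The stretches of Hspa1a and Hspa1b differ at 1 of 150 bases. Their coding sequences are 99.4% identical, so reads of one could be assigned to the other. Hspb1 holds 2 repeats in its stretch.

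The 3-unit repeats are shown with their surroundings, 30 bases each, with the repeat in capitals (for Hspe1 a run of 2 overlapping 3-unit matches), at chr1:55088053-55088082 (plus) for Hspe1, chr5:149636279-149636308 (minus) for Hsph1 and chr5:29735844-29735873 (plus) for Dnajb6. The Hsph1 repeat lies downstream of the start, at bases 16 to 28 or 37 to 49 by the start used. Those of Hspe1 (-89 to -72) and Dnajb6 (-46 to -34 or -127 to -115) lie upstream.
Hspe1: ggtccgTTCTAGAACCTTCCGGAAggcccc
Hsph1: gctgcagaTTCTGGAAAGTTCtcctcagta
Dnajb6: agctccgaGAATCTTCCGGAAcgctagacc

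Most of the chaperone pool in these libraries came from constitutive members. On the deposited TPM scale (transcripts-per-million, which allows for gene length), Hspa8 had the highest mean level, 2416 TPM; it encodes Hsc70, the Hsp70 protein made at all times. It was followed by Hsp90ab1, the constitutive cytosolic Hsp90, with 1054 TPM, and by Dnaja1, a J-protein gene on the stress-inducible list, with 836. Next came Dnajb6, whose protein holds back aggregation, with 439, and Dnajc8, whose protein associates with the spliceosome, with 391. Within cytosolic Hsp70, Hspa8 supplied between 98.0 and 99.7% of the summed TPM of Hspa8, Hspa1a and Hspa1b in the 4 libraries. Within the cytosolic Hsp90 pair, Hsp90ab1 supplied between 79.7 and 86.0%. The summed level of all 73 members was 8963, 8260, 9096 and 8664 TPM in isotype then CD4-depleted IPF-LC and isotype then CD4-depleted LC, so the pool as a whole was close to level. In that order the constitutive members summed to 7205, 6730, 7396 and 7004 TPM, and the stress-inducible ones to 1758, 1531, 1701 and 1660.

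**Figure D1:**
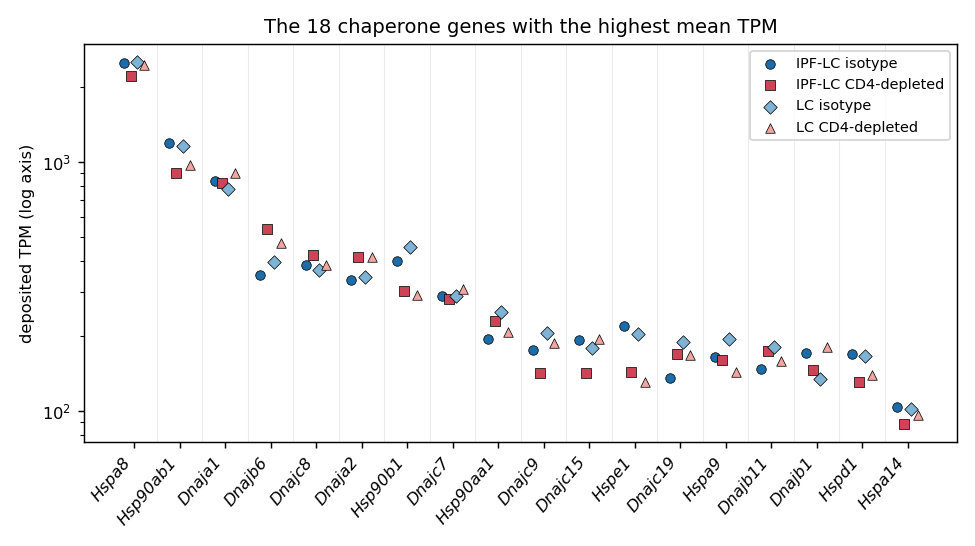
Deposited TPM (log axis) of the 18 members with the highest mean, 1 symbol per library. Hspa8 stands above every other member in all 4 libraries, and the libraries lie close together for most genes.

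Against that level pool, the inducible Hsp70 genes were much lower in 1 library. Hspa1a measured 48.8 CPM in isotype IPF-LC, 5.77 in CD4-depleted IPF-LC, 39.7 in isotype LC and 24.9 in CD4-depleted LC. Hspa1b, which encodes almost the same protein, measured 50.9, 5.90, 38.2 and 27.3 CPM in that order. Both isotype libraries were above both depleted ones, and CD4-depleted IPF-LC was the lowest by a wide margin. Since the split between the copies is uncertain, their sum is the safer value: 1559, 182, 1204 and 818 counts, or 99.8, 11.7, 77.9 and 52.2 CPM. The sum was 8.54-fold lower with depletion in IPF-LC (log2 ratio -3.09, counting interval -3.32 to -2.87) and 1.49-fold lower in LC (-0.58, interval -0.71 to -0.45). The intervals of these ratios do not overlap. The difference between the models was not tested, since each ratio rests on 1 library a group.

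Hsph1, the inducible Hsp110 that exchanges the nucleotide of Hsp70, showed the next largest ratio among the stress-inducible members averaging 10 CPM or more. It measured 209.9 CPM in isotype IPF-LC, 69.6 in CD4-depleted IPF-LC, 192.1 in isotype LC and 108.4 in CD4-depleted LC. The order of the libraries was that of Hspa1a and Hspa1b. Its level was 3.01-fold lower with depletion in IPF-LC (log2 ratio -1.59, interval -1.69 to -1.49) and 1.77-fold lower in LC (-0.83, interval -0.91 to -0.74). On the TPM scale the LC ratio was -1.07, past 2-fold, and the IPF-LC ratio -1.41.

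The J-proteins that serve the same Hsp70 did not share this pattern. Dnajb1, the Hsp40 that is induced with Hsp70, measured 352.3 CPM in isotype IPF-LC, 311.4 in CD4-depleted IPF-LC, 261.6 in isotype LC and 372.0 in CD4-depleted LC. It was thus slightly lower with depletion in IPF-LC (log2 ratio -0.18, interval -0.23 to -0.12) and higher in LC (0.51, interval 0.45 to 0.57). Dnaja1, a J-protein that works with both Hsc70 and Hsp70, measured 969.3, 1030, 843.9 and 1092 CPM in the same order. Its ratios were 0.09 in IPF-LC and 0.37 in LC, and the first changed sign, to -0.03, on the TPM scale. Dnajb4, another inducible J-protein, was level with depletion in both models, at 41.1, 41.3, 45.8 and 45.7 CPM. Its promoter stretch above holds a repeat, whose part in this level was not tested.

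Hsp90aa1, the inducible cytosolic Hsp90, also went its own way. It measured 387.5 CPM in isotype IPF-LC, 480.6 in CD4-depleted IPF-LC, 479.3 in isotype LC and 416.9 in CD4-depleted LC, giving ratios of 0.31 (interval 0.26 to 0.36) in IPF-LC and -0.20 (interval -0.25 to -0.15) in LC. CD4-depleted IPF-LC, the library with the lowest Hspa1a, was together with isotype LC at the high end for Hsp90aa1.

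The mitochondrial folding chamber showed smaller ratios of 1 sign in both models. Hspe1, its Hsp10 lid, measured 78.0 CPM in isotype IPF-LC, 52.7 in CD4-depleted IPF-LC, 68.8 in isotype LC and 46.8 in CD4-depleted LC. Both depleted libraries were below both isotype libraries, by a log2 ratio of -0.56 (interval -0.69 to -0.44) in IPF-LC and -0.55 (interval -0.69 to -0.42) in LC. Hspd1, the Hsp60 barrel transcribed from the same promoter region, measured 267.2, 214.3, 247.1 and 221.1 CPM, with ratios of -0.32 and -0.16.

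Hspb1, a small heat shock protein that also guards the cytoskeleton, was scarce. It had 21 counts in isotype IPF-LC, 1 in CD4-depleted IPF-LC, 108 in isotype LC and 16 in CD4-depleted LC, or 1.34, 0.06, 6.99 and 1.02 CPM. The log2 ratio in IPF-LC, -3.84, has an interval from -9.76 to -1.75 because of the single count, and that in LC, -2.74, one from -3.63 to -2.01. The library with the highest Hspb1, isotype LC, was also the one with the highest summed fibroblast and smooth muscle markers (89.6 CPM). It was the highest as well for neutrophil (89.9 CPM), epithelial (44.5), endothelial (263) and NK cell markers (37.3). The summed macrophage and B cell markers were highest in isotype IPF-LC. For macrophages this rests on Lyz2, at 2408 CPM there and 2089 in isotype LC. Every other marker on the macrophage list was highest in isotype LC. The part of these lists in the Hspb1 level was not tested.

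**Figure D2:**
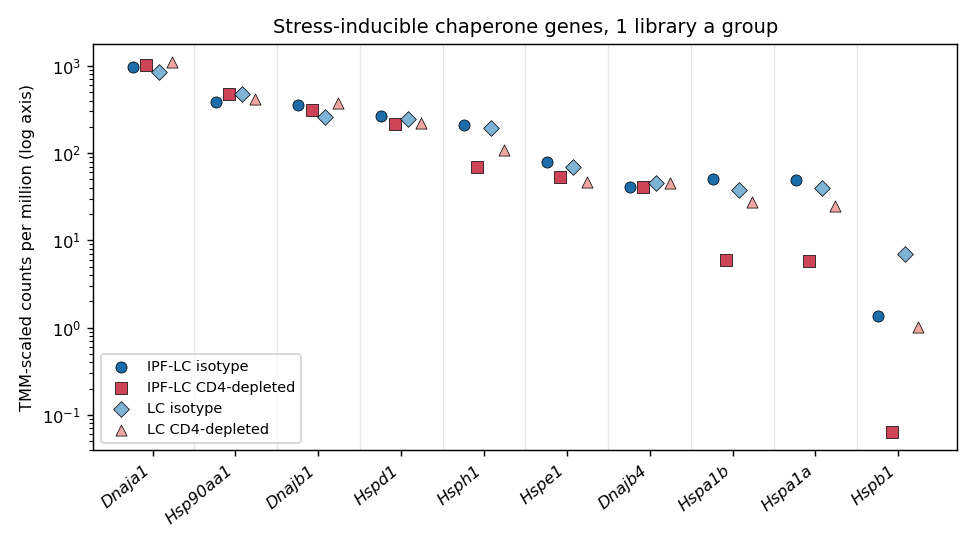
TMM-scaled CPM (log axis) of the 10 stress-inducible members, 1 symbol per library. Hspa1a, Hspa1b, Hsph1 and Hspb1 are lowest in CD4-depleted IPF-LC, at 5.77, 5.90, 69.6 and 0.06 CPM, as is Hspd1 by a small margin (214.3), while Dnaja1, Dnajb1, Hsp90aa1 and Dnajb4 show no such gap.

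Over the stress-inducible list as a whole, the median log2 depletion ratio of its 10 members was -0.44 in IPF-LC, where the 48 constitutive members averaging 1 CPM or more had -0.12 and all 12231 genes at that level -0.02. In LC the medians were -0.34, -0.02 and 0.01. The summed counts of the list gave -0.12 in IPF-LC and 0.08 in LC, the second with the opposite sign to its median, since Dnaja1, the most abundant member, was higher with depletion. The medians of IPF-LC over LC were 0.15 with isotype antibody and -0.20 after depletion for the stress-inducible members, and 0.06 and 0.01 for the constitutive ones. These comparisons share libraries with the depletion ratios and add no independent data.

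Counted at 2-fold, few members stood apart. Among the 46 members averaging 10 CPM or more, 3 were at least 2-fold lower with depletion in IPF-LC (Hspa1a, Hspa1b and Hsph1), or 6.52%, where 6.02% of the 8433 genes at that level were. In the other direction, 1 member, Hspa2, was at least 2-fold higher (2.17%), where 4.08% of the genes were. Next to the 2-fold limit, Hspa4l lay just outside at a log2 ratio of -0.98, and the nearest inside was Hsph1 at -1.59. In LC no member reached 2-fold, where 2.59% of the genes were higher and 5.85% lower. For IPF-LC over LC with isotype antibody, 0 members were at least 2-fold higher (1.91% of the genes) and 1, Hspa2, lower (4.1%). After depletion 0 were higher (3.3%) and 2, Hspa1a and Hspa1b, lower (2.57%). The members' shares were thus near or below those of all genes, except after depletion, where the near-identical Hspa1a and Hspa1b alone made up 4.35% of the 46.

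**Figure D3:**
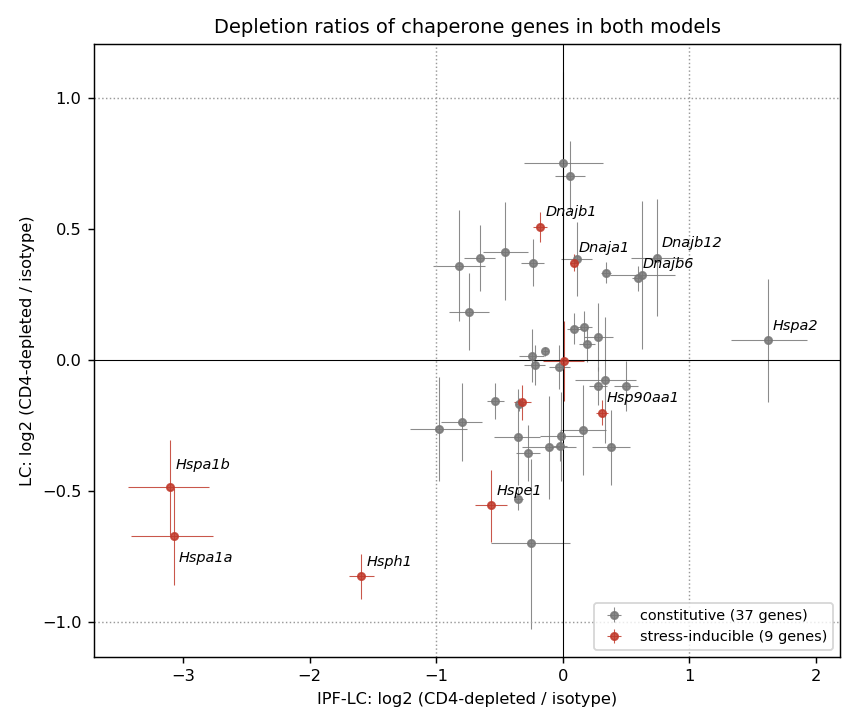
Log2 depletion ratios of the 46 members averaging 10 CPM or more, IPF-LC on the x axis and LC on the y axis, with 95% counting intervals as bars and dotted lines at 2-fold. Hspa1a, Hspa1b and Hsph1 lie left of the -1 line, Hspa2 right of the 1 line, and no member passes 2-fold in LC.

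Hspa2, an Hsp70 best known from male germ cells, was the member on the other side. It measured 8.06 CPM in isotype IPF-LC, 24.9 in CD4-depleted IPF-LC, 18.9 in isotype LC and 19.9 in CD4-depleted LC. Isotype IPF-LC was the low library and the other libraries lay together, so that the depletion ratio was 1.62 (interval 1.33 to 1.93) in IPF-LC and 0.07 in LC, and IPF-LC over LC with isotype antibody was -1.23.

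The constitutive cytosolic chaperones showed small ratios. Hspa8 measured 3637 CPM in isotype IPF-LC, 3310 in CD4-depleted IPF-LC, 3478 in isotype LC and 3561 in CD4-depleted LC, with depletion ratios of -0.14 and 0.03. Hsp90ab1 measured 1927, 1517, 1760 and 1565 CPM, lower with depletion by log2 ratios of -0.34 and -0.17. Of the constitutive Hsp110 genes, Hspa4 had ratios of 0.19 and 0.06, while Hspa4l measured 30.6, 15.5, 29.4 and 24.5 CPM, with ratios of -0.98 and -0.26. Hspbp1, a nucleotide exchange factor of Hsp70, measured 55.0, 31.6, 51.7 and 43.9 CPM, with ratios of -0.80 and -0.24. The low library was CD4-depleted IPF-LC for both Hspa4l and Hspbp1, as it was for Hspa1a and Hsph1. Hspa4, Hspa4l, Hspbp1 and the members named below for their families alone were chosen after their values were seen.

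The DnaJA and DnaJB families had summed levels that were higher with depletion. Over the 4 DnaJA members the summed level was 1710 CPM in isotype IPF-LC, 1929 in CD4-depleted IPF-LC, 1537 in isotype LC and 1947 in CD4-depleted LC (log2 ratios 0.17 and 0.34). Over the 12 DnaJB members it was 1068, 1250, 1028 and 1222 CPM (0.23 and 0.25). In both families the depleted library was the higher one in each model. Without Dnajb6 the other 11 DnaJB members summed to 690.1, 679.1, 617.9 and 713.0 CPM, so that in IPF-LC the higher sum came from Dnajb6. That gene measured 378.3, 570.4, 410.1 and 509.1 CPM, with ratios of 0.59 (interval 0.54 to 0.64) and 0.31 (interval 0.26 to 0.36). Dnajb12, a J-protein of the endoplasmic reticulum (ER) membrane, measured 19.5, 32.6, 18.8 and 24.7 CPM, with ratios of 0.74 and 0.39, and Dnaja2, a partner of Hsc70, had ratios of 0.34 and 0.33. Dnajb6 and Hsph1 each have a 3-unit repeat, upstream of the start in Dnajb6 and downstream of it in Hsph1. With depletion Dnajb6 was higher and Hsph1 lower in both models, and the part of the repeats in these ratios was not tested.

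The 28 DnaJC members, the most varied group, summed to nearly level values of 1993, 1915, 1844 and 1910 CPM. Of the 19 averaging 10 CPM or more, the whole counting interval in IPF-LC lay above 0 for 6 and below 0 for 6, where over all genes at that level it lay above 0 for 39.0% and below for 38.4%. In LC it lay above 0 for 9 and below for 7, where the shares of all genes were 41.2% and 30.6%. Dnajc13, an endosomal J-protein, measured 75.3 CPM in isotype IPF-LC, 78.4 in CD4-depleted IPF-LC, 48.2 in isotype LC and 78.5 in CD4-depleted LC, so that only isotype LC was low (ratios 0.06 and 0.70). Dnajc25 showed the same order of libraries at a lower level, 11.1, 11.2, 7.38 and 12.4 CPM, with ratios of 0.00 and 0.75 (interval of the second 0.41 to 1.10). Dnajc8 had ratios of 0.17 and 0.13.

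Among ER chaperones, Hsp90b1 (Grp94, the Hsp90 of the ER, needed for integrins and Toll-like receptors) measured 765.4 CPM in isotype IPF-LC, 601.0 in CD4-depleted IPF-LC, 798.5 in isotype LC and 552.8 in CD4-depleted LC. Both depleted libraries were below both isotype libraries, with ratios of -0.35 and -0.53 (interval of the second -0.57 to -0.49). Dnajc3, an ER co-chaperone, had ratios of -0.53 and -0.16, and Dnajb11, another, 0.28 and -0.10. Over the 9 ER members averaging 10 CPM or more the median was -0.01 in IPF-LC and -0.10 in LC, and over the 8 mitochondrial members -0.13 and -0.21, beside 0.00 and 0.06 for all genes at that level. Hspa9, the mitochondrial Hsp70, had ratios of -0.02 and -0.33.

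Read over both models, 12 of the 46 members (26.1%) had both depletion intervals below 0, where 15.5% of all genes at that level did. Both intervals lay above 0 for 7 (15.2%, against 20.0% of all genes) and on opposite sides for 11 (23.9%, against 21.2%), and for the other 16 at least 1 interval held 0. The 12 lower ones included 5 stress-inducible members (Hspa1a, Hspa1b, Hsph1, Hspd1 and Hspe1) and the Hsp90 genes Hsp90ab1 and Hsp90b1. The rest of the 12 were the J-protein genes Dnajb2, Dnajc3 and Dnajc14, with Hspa4l and Hspbp1. The 7 higher ones were all J-protein genes (Dnaja1, Dnaja2, Dnajb6, Dnajb12, Dnajc7, Dnajc8 and Dnajc21). J-protein genes make up most of the 46 members, with 4 DnaJA, 7 DnaJB and 19 DnaJC genes. In a description chosen after the values were seen, both isotype libraries lay above both depleted libraries for 14 of 46 members (30.4%) and for 5 of 9 stress-inducible members of that mean, where 20.3% of all genes did. The reverse order, both isotype libraries below both depleted ones, held for 10 of 46 (21.7%), where 24.7% of all genes did.

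In an additive model over the 4 libraries, with model and treatment as terms, the only residual freedom is the interaction between those terms. The quasi-likelihood test of edgeR with Benjamini-Hochberg adjustment called 0 of the 58 members tested for depletion, where it called 0.0% of 13050 genes. At an unadjusted p under 0.05 it had 0 members higher (3.13% of genes) and 6 lower (6.87% of genes): Hspa1a, Hspa1b, Hsph1, Hspe1, Hspb1 and Hsp90b1. The smallest adjusted p by edgeR was 0.265 for Hsph1, whose log2 change over both models was -1.23 (SE 0.24). DESeq2 called Hsph1 alone, lower, with an adjusted p of 0.000948, where it called 2.92% of genes lower and 0.766% higher, and limma-voom called 0 members, with an adjusted p of 0.0982 for Hsph1. Over all settings run, the adjusted p for Hsph1 lay between 0.000948 and 0.426. For Hspa1a and Hspa1b edgeR gave log2 changes of -1.87 (SE 0.65) and -1.79 (SE 0.70) with adjusted p-values of 0.456 and 0.492. For IPF-LC over LC, edgeR, DESeq2 (which called 0.0383% of genes lower) and limma-voom each called 0 members. At an unadjusted p under 0.05 edgeR had 0 members there, where 0.705% of genes were higher and 1.33% lower.

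Outside the families, several Hsp90 co-chaperones were lower with depletion in both models. Chordc1, an Hsp90 co-chaperone that is itself heat-inducible, measured 206.9 CPM in isotype IPF-LC, 82.0 in CD4-depleted IPF-LC, 185.6 in isotype LC and 141.1 in CD4-depleted LC, with ratios of -1.34 and -0.40. Stip1 (Hop), which joins Hsp70 to Hsp90, measured 297.6, 147.6, 267.8 and 196.1 CPM, with ratios of -1.01 and -0.45. CD4-depleted IPF-LC was the lowest library for both, and both isotype libraries were the highest. Fkbp4, an Hsp90-bound immunophilin, had ratios of -0.88 and -0.22, and Ahsa1, which speeds the Hsp90 ATPase, -0.80 and -0.36 (both chosen after their values were seen). Bag3, which links Hsp70 to autophagy, differed in its order, with 12.5, 18.3, 29.1 and 13.6 CPM and ratios of 0.54 in IPF-LC and -1.10 in LC. Of the 29 listed co-chaperones averaging 10 CPM or more, 0 were at least 2-fold higher and 2 lower in IPF-LC, and 0 and 1 in LC. Of all genes at that level, 4.08% were higher and 6.02% lower in IPF-LC, and 2.59% and 5.85% in LC. The medians of the co-chaperones were 0.00 and -0.08. Both isotype libraries lay above both depleted ones for 10 of the 29 (34.5%, beside the 20.3% of all genes given above). The reverse order held for 6 of the 29 (20.7%, beside 24.7% of all genes): Bag1, Fkbp8, Grpel1, Grpel2, Ttc1 and Unc45a.

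**Figure D4:**
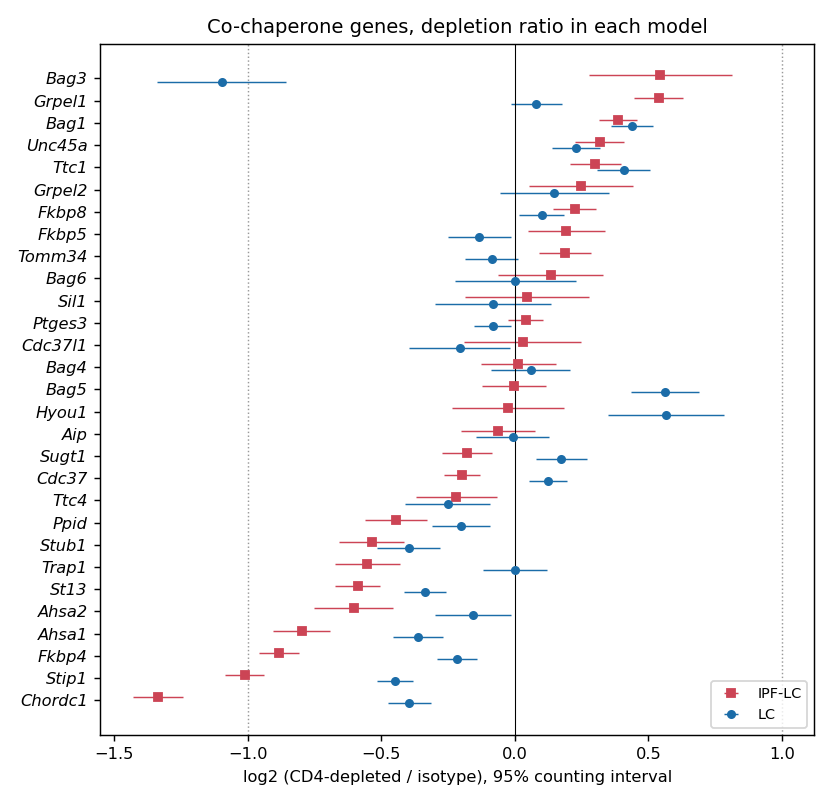
Log2 depletion ratios of the 29 co-chaperone genes averaging 10 CPM or more, with 95% counting intervals as bars and dotted lines at 2-fold, sorted by the ratio in IPF-LC. Chordc1 (-1.34) and Stip1 (-1.01) lie past 2-fold in IPF-LC, and Bag3 (-1.10) in LC.

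Hsf1, the gene of the regulator itself, differed little with depletion, with 86.4 CPM in isotype IPF-LC, 90.2 in CD4-depleted IPF-LC, 72.5 in isotype LC and 75.7 in CD4-depleted LC (ratios 0.06 and 0.06). A list of 15 other genes known as targets of HSF1 shares 5 genes with the co-chaperones. Of the 13 averaging 10 CPM or more, 0 were higher and 3 lower at 2-fold in IPF-LC (Chordc1, Stip1 and Banp), and 0 and 3 in LC (Bag3, Banp and Hmox1). The shares of all genes at that level were 4.08% higher and 6.02% lower in IPF-LC, and 2.59% and 5.85% in LC. Hmox1, which encodes heme oxygenase and is high in macrophages, measured 12.8, 11.4, 170.6 and 1.72 CPM, with a ratio of -6.60 in LC. Macrophage markers went from 2559 to 41.5 CPM between the same LC libraries, and their part in the Hmox1 ratio was not tested. Banp measured 31.2, 14.2, 31.1 and 8.48 CPM, with ratios of -1.14 and -1.87. The 16 genes of the chaperonin TRiC and of prefoldin, which fold actin and tubulin, included 0 past 2-fold in either direction in both models, with medians of -0.06 and 0.03.

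Immediate early genes, which are induced when tissue is dissociated, as Hspa1a and Hspa1b are, were listed to stand beside these values. The 14 on the list summed to 7411 CPM in isotype IPF-LC, 7083 in CD4-depleted IPF-LC, 7489 in isotype LC and 6451 in CD4-depleted LC. At 2-fold 0 were higher and 2 lower in IPF-LC, and 0 and 4 in LC. Of all genes averaging 10 CPM or more, 4.08% were higher and 6.02% lower in IPF-LC, and 2.59% and 5.85% in LC. CD4-depleted IPF-LC, the lowest library for Hspa1a, was also the lowest for 5 of the 14 (Fos, Jun, Egr1, Nr4a1 and Btg2). Fosb, Ier3, Atf3, Dusp1 and Zfp36 were lowest in CD4-depleted LC, and Junb, Jund, Ier2 and Socs3 in isotype LC. The share of all genes that were lowest in CD4-depleted IPF-LC is not given here. Proliferation genes, 20 on the list, summed to 1218, 1495, 1503 and 2183 CPM. With depletion 5 were at least 2-fold higher in IPF-LC and 7 in LC, where 4.08% and 2.59% of all genes were. The part of either list in the chaperone ratios was not tested.

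The remaining members were expressed weakly. With a mean between 1 and 10 CPM there were 12, none above 13.5 CPM in any library. With a mean under 1 CPM there were 15. Of these, 5 had 0 counts in all 4 libraries (Hspb2, Hspb3, Dnajb8, Dnajc5b and Dnajc5g), and 3 counts correspond to between 0.191 and 0.194 CPM. Of the small heat shock protein genes with a mean under 1 CPM, Hspb8 had 0, 0, 47 and 0 counts in isotype then CD4-depleted IPF-LC and isotype then CD4-depleted LC, which is at least 15.9-fold lower with depletion in LC against a floor of 3 counts per library. Hspb7 had 0, 10, 0 and 0 counts in that order and Hspb9 0, 4, 1 and 0. For Hspb8, isotype LC was again the library with the highest fibroblast and smooth muscle, neutrophil, epithelial, endothelial and NK cell markers. It was also the highest for every listed macrophage marker but Lyz2. The part of these markers in the Hspb8 counts was not tested. The 7 others with a count that are no small heat shock protein genes stayed at or under 42 counts in every library. The 8 members counted as small heat shock protein genes by their Hspb symbols together summed to between 8.73 and 15.6 CPM. Of this, Hspb11 alone had between 3.95 and 8.10 CPM.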

How the data were processed

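Libraries were grouped by the labels alone: 4 libraries, 1 for each combination of 2 models and 2 antibodies. Per the submitters' processing notes, the build was GRCm39 (mm39) and the tools included RSEM 1.3.3, STAR 2.7.11a, MultiQC 1.25.2 and fastp 0.23.4, with no roles given. The annotation release and the strandedness of counting are not given in the sources used here. The deposited expected counts are the authors' estimated reads per gene, not normalised, of which between 5.49 and 5.89% were not whole; they were rounded. The deposited TPM values were used for levels between genes and as an alternative scale, with a pseudocount of 0.1. The deposited FPKM values were not used.

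TMM-scaled CPM came from edgeR 4.0.16 in R 4.3.3. Log2 ratios used a prior count of 0.5 and an exact conditional binomial 95% interval. A gene counted as apart at 2-fold with a mean of at least 10 CPM; medians used a mean of at least 1 CPM. The additive model used edgeR's two-sided quasi-likelihood test, with Benjamini-Hochberg adjustment over all genes tested and an adjusted p threshold of 0.05. The fit was also run on simulated counts with the same depletion effect in both models. Such counts cannot show how it handles a depletion effect that differs between the models. DESeq2 1.42.0 and limma 3.58.1 were alternatives. Promoter windows are RefSeq's for GRCm38.p6.

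The members and gene lists were chosen with earlier results of these data known. Genes were named by a rule: all stress-inducible members, members 2-fold apart in any comparison, the 5 highest by mean TPM, the 3 highest and 3 lowest by counting bound in each depletion comparison, small heat shock protein genes, pathway genes 2-fold apart with depletion, and Hsf1. Of Hspa5 and Dnajb9 nothing is reported.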

Additional observations from a re-analysis of the deposited data

Results flagged for a closer look

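For 3 of the 46 members averaging 10 CPM or more, the depletion ratios lay on opposite sides of 0 in the models. Their counting intervals were clear of 0, with a difference of at least 1.5-fold in 1 model. Each difference rests on 1 library a group and was not tested. By the intervals alone, 11 of the 46 members (23.9%) lay on opposite sides, where 21.2% of all genes at that level did. The share of all genes that also reach 1.5-fold is not given here. Dnaja3, a mitochondrial J-protein, measured 55.9 CPM in isotype IPF-LC, 33.6 in CD4-depleted IPF-LC, 46.1 in isotype LC and 52.4 in CD4-depleted LC, with log2 ratios of -0.74 in IPF-LC and 0.18 in LC. Dnajc10 (ERdj5), a disulfide reductase of the endoplasmic reticulum, measured 92.3, 58.6, 57.8 and 75.7 CPM, with ratios of -0.65 and 0.39. Dnajc18 measured 35.0, 19.8, 21.0 and 27.0 CPM, with ratios of -0.82 and 0.36. For Dnajc10 and Dnajc18 isotype IPF-LC was the high library, and for Dnaja3 CD4-depleted IPF-LC was the low one.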

How the results depend on the processing

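With 1 library a group no replicate could be left out, and no ratio has a replicate error. No paired analysis was possible because each group has 1 library and the labels give no shared replicate numbers. The number of members at least 2-fold apart depended on the minimum level. Of CD4 depletion in IPF-LC it was 10 of 58 at a mean of at least 1 CPM, beside 4 of 46 at 10 CPM. It was 1 of 27 at 50 CPM and 16 of 68 with no minimum. Of all 12231 genes at 1 CPM, 1081 were at least 2-fold higher and 1665 lower. Of depletion in LC it was 5 of 58 at 1 CPM, 12 of 68 with no minimum and 1 (Hsph1, lower) from TPM, beside 0 of 46. There 714 of the 12231 genes at 1 CPM were higher and 1889 lower. Of IPF-LC over LC with isotype antibody it was 5 of 58 at 1 CPM, beside 1 of 46. It was 0 of 27 at 50 CPM, 11 of 68 with no minimum and 0 where the whole interval had to pass 2-fold. Of the 12231 genes at 1 CPM, 651 were higher and 1427 lower there. After depletion IPF-LC over LC had 6, 0 and 13 members apart at those 3 minimums, beside 2. At 1 CPM 1173 genes were higher and 931 lower in that comparison. The shares of all genes at 50 CPM and with no minimum are not given here. The stress-inducible median of depletion was -0.32 in IPF-LC and -0.20 in LC at 10 CPM. Over the strict list of 6 genes it was -2.33 and -0.58, and -1.37 for IPF-LC over LC after depletion. That list is short, and the near-identical Hspa1a and Hspa1b count as separate genes on it. It also holds Hspb1, whose IPF-LC ratio (-3.84, interval -9.76 to -1.75) rests on 1 count in the depleted library. The median of the strict list in IPF-LC lies in the gap between the ratios of Hspa1a (-3.07) and Hsph1 (-1.59). DESeq2 called 1 member for depletion in the additive model, where edgeR called 0. Of 304 single-gene ratios under the alternatives, 238 stayed within their counting interval and 66 did not; 15 changed sign, none of a ratio past 2-fold, and 1 crossed 2-fold.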

Other observations

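Some weakly expressed members, named here after their values were seen, had ratios past 2-fold. Dnajb14, an endoplasmic reticulum membrane J-protein related to Dnajb12, measured 9.85 CPM in isotype IPF-LC, 4.56 in CD4-depleted IPF-LC, 13.5 in isotype LC and 6.19 in CD4-depleted LC, with log2 depletion ratios of -1.11 and -1.12. Both depleted libraries were the low ones, where Dnajb12 was higher with depletion in both models. Dnajc28 measured 10.2, 2.37, 2.85 and 2.68 CPM, so that isotype IPF-LC stood alone. Hspa12b, a distant Hsp70 relative known from endothelial cells, had 66, 0, 28 and 5 counts, at least 21.9-fold lower with depletion in IPF-LC against a floor of 3 counts per library. In those IPF-LC libraries Pecam1 was near level at 133.7 and 136.5 CPM, while the other 4 endothelial markers summed to 85.2 and 6.48 CPM, with Kdr at 0 after depletion. Their part in the Hspa12b value was not tested.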
